A study of Homo sapiens with 8 samples.

Results

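CTCF peaks around 10 AP-1 and immediate early genes, FOS, FOSL1, FOSL2, JUN, JUNB, ATF3, EGR1, KLF6, IER2 and DUSP1, were followed from control cells to cells treated with the curaxin CBL0137. A window was the gene body in the GENCODE annotation of hg19 plus 100 kb on each side, and every peak overlapping a window was taken. The windows covered 10 of 20163 protein-coding genes and held 85 of the 47470 peaks of control cells and 74 of the 29558 peaks of treated cells, in all 159 of 77028. No member window overlapped another, but JUNB and IER2 both lie on chromosome 19.

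The cells were HT1080, a human fibrosarcoma line from connective tissue that carries an activated ras oncogene, and all groups come from this single line. Control cells and cells kept in 3 µM CBL0137 for 6 h were each represented by 2 ChIP libraries, made with a polyclonal anti-CTCF antibody, and by 2 libraries of input DNA, 8 libraries in all. Each deposited list combines both replicates of a condition and holds no read counts, so the depth behind a single peak is unknown, no spread between replicates could be computed from the lists, and no comparison below has a test. Absence from a list means only that no peak was called there.

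AP-1 is a dimeric transcription factor built from FOS, JUN and ATF proteins, and it is a main end point of growth factor and ras signalling. Immediate early genes are switched on within minutes of a stimulus without new protein synthesis, from short genes with enhancers close by and far away. CTCF is a zinc finger protein that binds a long motif and halts cohesin, and loops are most often anchored by sites whose motifs point towards each other. Curaxins intercalate into DNA and disturb the wrapping of DNA around histones.

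The sequences below show the core matches under peaks that flank or mark these genes. Peaks without a match are not shown, and some with a match are left out too, such as those inside FOSL2 and the nearest upstream control peak of KLF6. A match was found for 7 of the 20 nearest control peaks, against 50.1% over all protein-coding genes. Of the 10 strongest peaks 7 had one, and that share was not computed over all genes. Each is 30 bases of hg19, 5′ to 3′ on the strand given, with the match to the 12-base core of the CTCF consensus (at most 1 mismatch) in capitals. The first set comes from peaks present in both lists that were the nearest neighbour of a gene, the strongest of its window or inside the gene.
FOS, strongest peak, chr14:75774667-75774696, plus strand: ggtcccgagCCAGAAGAGGGCgctcttcag
FOSL1, strongest peak, chr11:65585779-65585808, minus strand: cccggcgttCCAGGAGGGGGCgctgctgac
FOSL2, nearest downstream and strongest peak, chr2:28675519-28675548, minus strand: gaggggcagACACTAGAGGGCgcaagggag
JUN, nearest downstream and strongest peak, chr1:59235101-59235130, minus strand: aaaacagtgCCGGTAGATGGCgccagaggg
JUNB, strongest peak, chr19:12871544-12871573, plus strand, no mismatch: ccagagtggCCACCAGAGGGCgcctatgaa
JUNB, nearest upstream control peak, chr19:12888539-12888568, plus strand, no mismatch: cgcccgggcCCACCAGGGGGCgcggagacc
ATF3, nearest upstream peak, chr1:212650657-212650686, plus strand: ggactctggCCACTAGAGAGCagtagaggg
EGR1, nearest upstream and strongest peak, chr5:137799949-137799978, plus strand: gagagggaaCCTCCAGGGGGCagcaccgag
IER2, strongest peak, chr19:13323826-13323855, plus strand, no mismatch: ccacaagagCCACCAGAGGGCgcccatgag
DUSP1, peak in a coding exon, chr5:172197718-172197747, plus strand: aggcgccggCCAGCAGGCGGCcgcggagct
The next pair shows a site of each list that the other list lacked, the second of them not the nearest peak to its gene.
FOSL1, nearest upstream peak, in the control list only, chr11:65679410-65679439, minus strand: cctcagaggCCAGGAGAGGGCagcgaagca
FOSL2, upstream peak, in the treated list only, chr2:28598191-28598220, plus strand: ccacccagcCCGGCAGGGGGCaggagccca

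Neither peak that appeared beside a gene start after treatment held a core match, and their whole sequences are given for that reason, with CpG dinucleotides in capitals. Both lie in an intron, touch no exon, and are written along the minus strand on which FOSL1 and KLF6 are transcribed.
FOSL1, chr11:65666851-65667100: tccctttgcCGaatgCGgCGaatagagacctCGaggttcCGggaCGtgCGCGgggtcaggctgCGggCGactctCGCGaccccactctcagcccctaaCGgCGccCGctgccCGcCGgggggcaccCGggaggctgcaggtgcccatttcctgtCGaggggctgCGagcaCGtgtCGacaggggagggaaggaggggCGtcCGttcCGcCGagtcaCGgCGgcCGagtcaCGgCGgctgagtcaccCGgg
KLF6, chr10:3826901-3827050: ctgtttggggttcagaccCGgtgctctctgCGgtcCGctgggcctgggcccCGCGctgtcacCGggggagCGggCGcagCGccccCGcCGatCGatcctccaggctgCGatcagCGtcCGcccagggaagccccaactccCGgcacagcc
The FOSL1 stretch had 32 CpGs in 250 bp and the KLF6 stretch 16 in 150 bp. The FOSL1 stretch also held 1 AP-1 site, TGANTCA on either strand, starting at base 238 of the printed sequence, and the KLF6 stretch held none.

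Across the 10 windows most CTCF peaks had a counterpart after treatment. A control peak was counted as kept when it overlapped a peak of treated cells by at least 1 bp and as lost otherwise, and a treated peak without any control peak under it as arisen. Of 85 control peaks, 63 were kept and 22 were lost, which is 25.9% (Wilson 95% interval 17.8 to 36.1), where 42.9% of all control peaks were lost. Over protein-coding gene windows with at least 5 control peaks the median lost share was 33.3%, which lies inside that interval. Of 74 treated peaks, 11 were arisen, which is 14.9% (8.51 to 24.7), where the share was 8.07% over the whole treated list. These intervals cover counting error only, and neighbouring peaks of 1 window are not independent. Every gene except KLF6 had at least 1 lost peak, and 5.8% of all protein-coding gene windows with at least 5 control peaks had none. An arisen peak was found for 5 of the genes, and for 30.8% of all protein-coding genes.

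**Figure D1:**
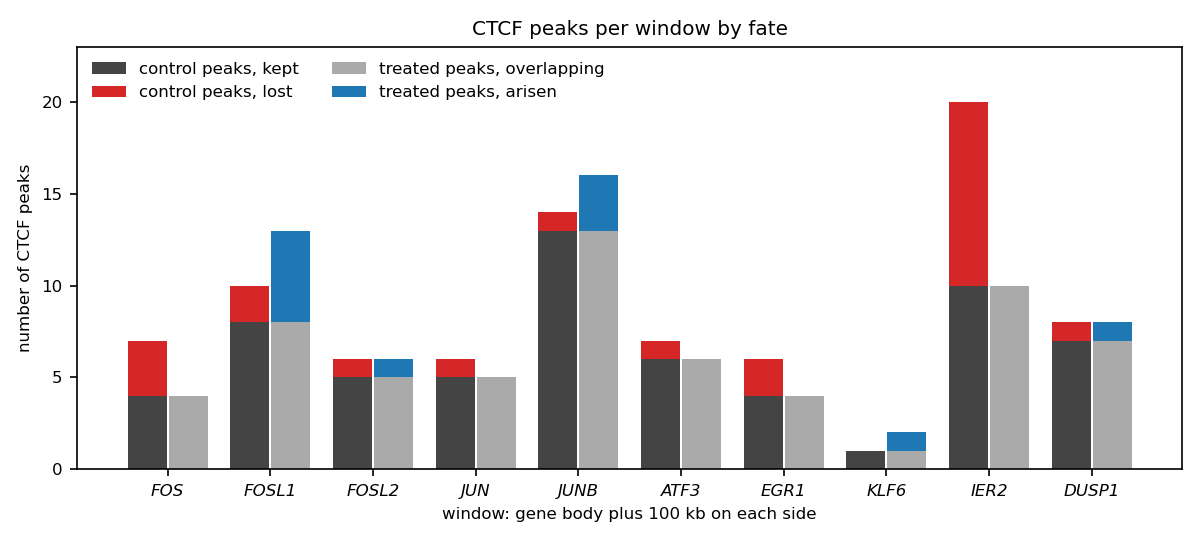
Number of CTCF peaks per window (gene body plus 100 kb on each side) for the 10 genes, with control peaks in the left bar of each pair and treated peaks in the right bar, stacked by fate. IER2 stands out with 10 lost of 20 control peaks, and FOSL1 with 5 arisen of 13 treated peaks.

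The lost peaks were unevenly spread over the genes. IER2 alone held 10 of the 22, and without its window the lost share was 12 of 65, or 18.5%. Leaving out JUNB, which lost least among the genes with more than 1 control peak, gave 29.6%. Of the arisen peaks 5 lay in the FOSL1 window, and without it the arisen share was 6 of 61, or 9.84%. Over the 14212 windows of protein-coding genes with at least 5 control peaks the median lost share was 33.3% (quartiles 20% and 50%). FOSL1, FOSL2, JUN, JUNB, ATF3 and DUSP1 were at or under the lower quartile, EGR1 was at the median, FOS was at 42.9%, and IER2 was at the upper quartile.

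**Figure D2:**
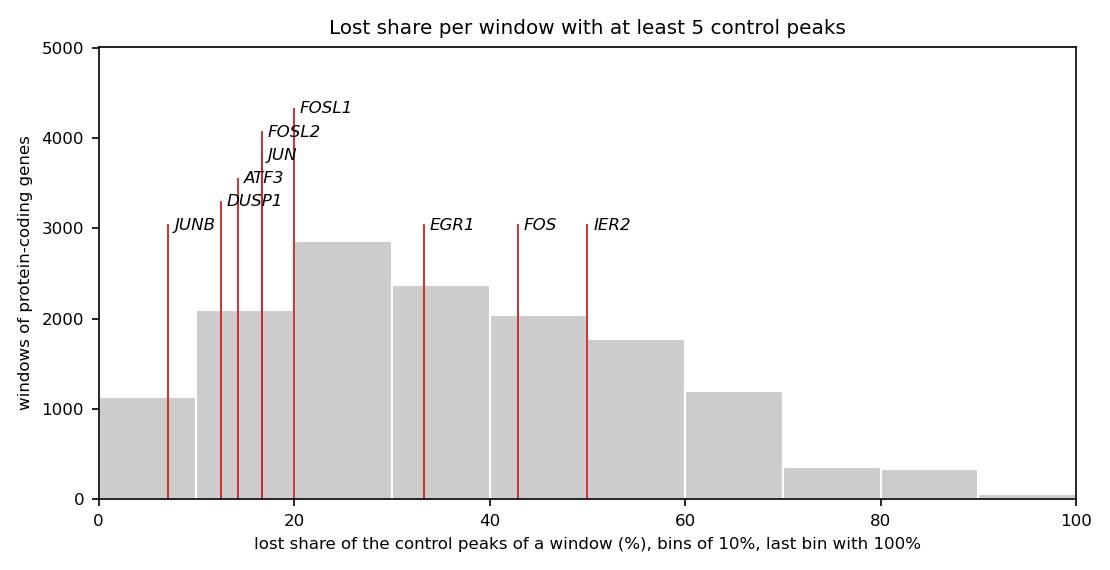
Grey bars give the number of protein-coding gene windows with at least 5 control peaks (vertical axis) by the share of those peaks that was lost (horizontal axis, in %), and red lines mark 9 of the genes (KLF6 had 1 control peak and is not shown). JUNB is farthest to the left at 7.14% and IER2 farthest to the right at 50%.

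Peak strength went with fate. Fold enrichment is the ratio of ChIP over input signal in the authors' lists. Each list has its own input, so folds of the lists are given side by side without a ratio between them, and strength was compared by rank within a list. In the control list the kept peaks had a median fold of 36.0 (8.91 to 74.0) and the lost peaks one of 16.9 (8.19 to 39.8). Among control peaks below the list median of 28.7 fold, 17 of 31 were lost (54.8%, against 65.7% over the whole list), and among the stronger ones 5 of 54 (9.26%, against 20.1%). Stronger peaks made up 63.5% of the control peaks in these windows. The lost peaks were also narrow, with a median of 200 bp where kept peaks had 350 bp, the same medians as over the whole control list. The strongest control peak of the window was kept in 10 of 10 genes, as it was in 87.2% of the 19271 protein-coding gene windows with a control peak.

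FOS encodes the founding partner of JUN in AP-1 and lies at chr14:75745529-75748933 on the plus strand. No peak of either list touched the gene or the 2 kb around its start. Of its 7 control peaks 4 were kept and 3 lost, and no peak arose. The nearest upstream control peak, chr14:75697101-75697400 (29.4 fold), lay 48.1 kb away and was the sole peak upstream of FOS in the window, and it was lost. The nearest treated peak on that side was 189878 bp away, outside the window. The downstream neighbour at chr14:75750351-75750600, 1417 bp past the gene end, was kept, with 32.4 fold in the control list and 25.4 fold in the treated list. The strongest peak, chr14:75774451-75774850, was kept too and moved from the 77.5th to the 88.5th percentile of its list, a percentile being the share of peaks of the same list at or below a fold. All 4 treated peaks were thus downstream of FOS.

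FOSL1 encodes FRA-1, the FOS family member that is typically high in ras-transformed and invasive cells, and lies at chr11:65659520-65668044 on the minus strand. Its window lost 2 of 10 control peaks and gained 5 treated peaks, and 4.54% of all protein-coding gene windows had 3 or more arisen peaks. None of the 5 arisen peaks had an FDR of at most 1e-05, with values from 1.11e-05 to 1.00e-03. One arisen peak, chr11:65666851-65667100, sat in an intron with its centre 1068 bp past the start, at 31.8 fold, the 59.3rd percentile of the treated list. Its GC content over 400 bp was 73.2%. Another, chr11:65658551-65658650, lay 869 bp past the gene end in a coding exon of CCDC85B, at 29.5 fold. The other arisen peaks of the window had between 10.9 and 13.7 fold. At the 3′ end of the gene the peak chr11:65659251-65659600 was kept, with 33.1 fold in control and 21.9 fold in treated cells. The upstream neighbour chr11:65679301-65679550, with its core pointing towards FOSL1, was lost at 30.0 fold, so that the nearest treated peak upstream was 32.0 kb from the gene instead of 11.3 kb. The downstream control neighbour, chr11:65655701-65656650 in the FIBP promoter, was kept at the 62.3rd and 65.8th percentiles. The strongest peak, chr11:65585551-65586100, was kept with the same borders, at 74.0 fold in the control list and 65.3 fold in the treated list.

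FOSL2, which encodes FRA-2, lies at chr2:28615315-28640184 on the plus strand and had 3 control peaks at the gene, all kept. The promoter peak chr2:28614851-28615150 had 18.1 fold in control and 19.5 fold in treated cells. The intronic peak chr2:28619701-28620000 stayed at mid-list, at the 50.1st and the 51.4th percentile. A weak peak of 100 bp in an untranslated exon, chr2:28636501-28636600, whose core had no mismatch, had 11.3 fold in control cells. Its counterpart in treated cells was 250 bp wide with 20.6 fold. The downstream neighbour, 35.1 kb away, was the strongest of the window (51.8 fold) and was kept. The single lost peak was weak (15.2 fold), and the arisen peak upstream, printed above, had 24.9 fold and a core pointing towards FOSL2.

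**Figure D3:**
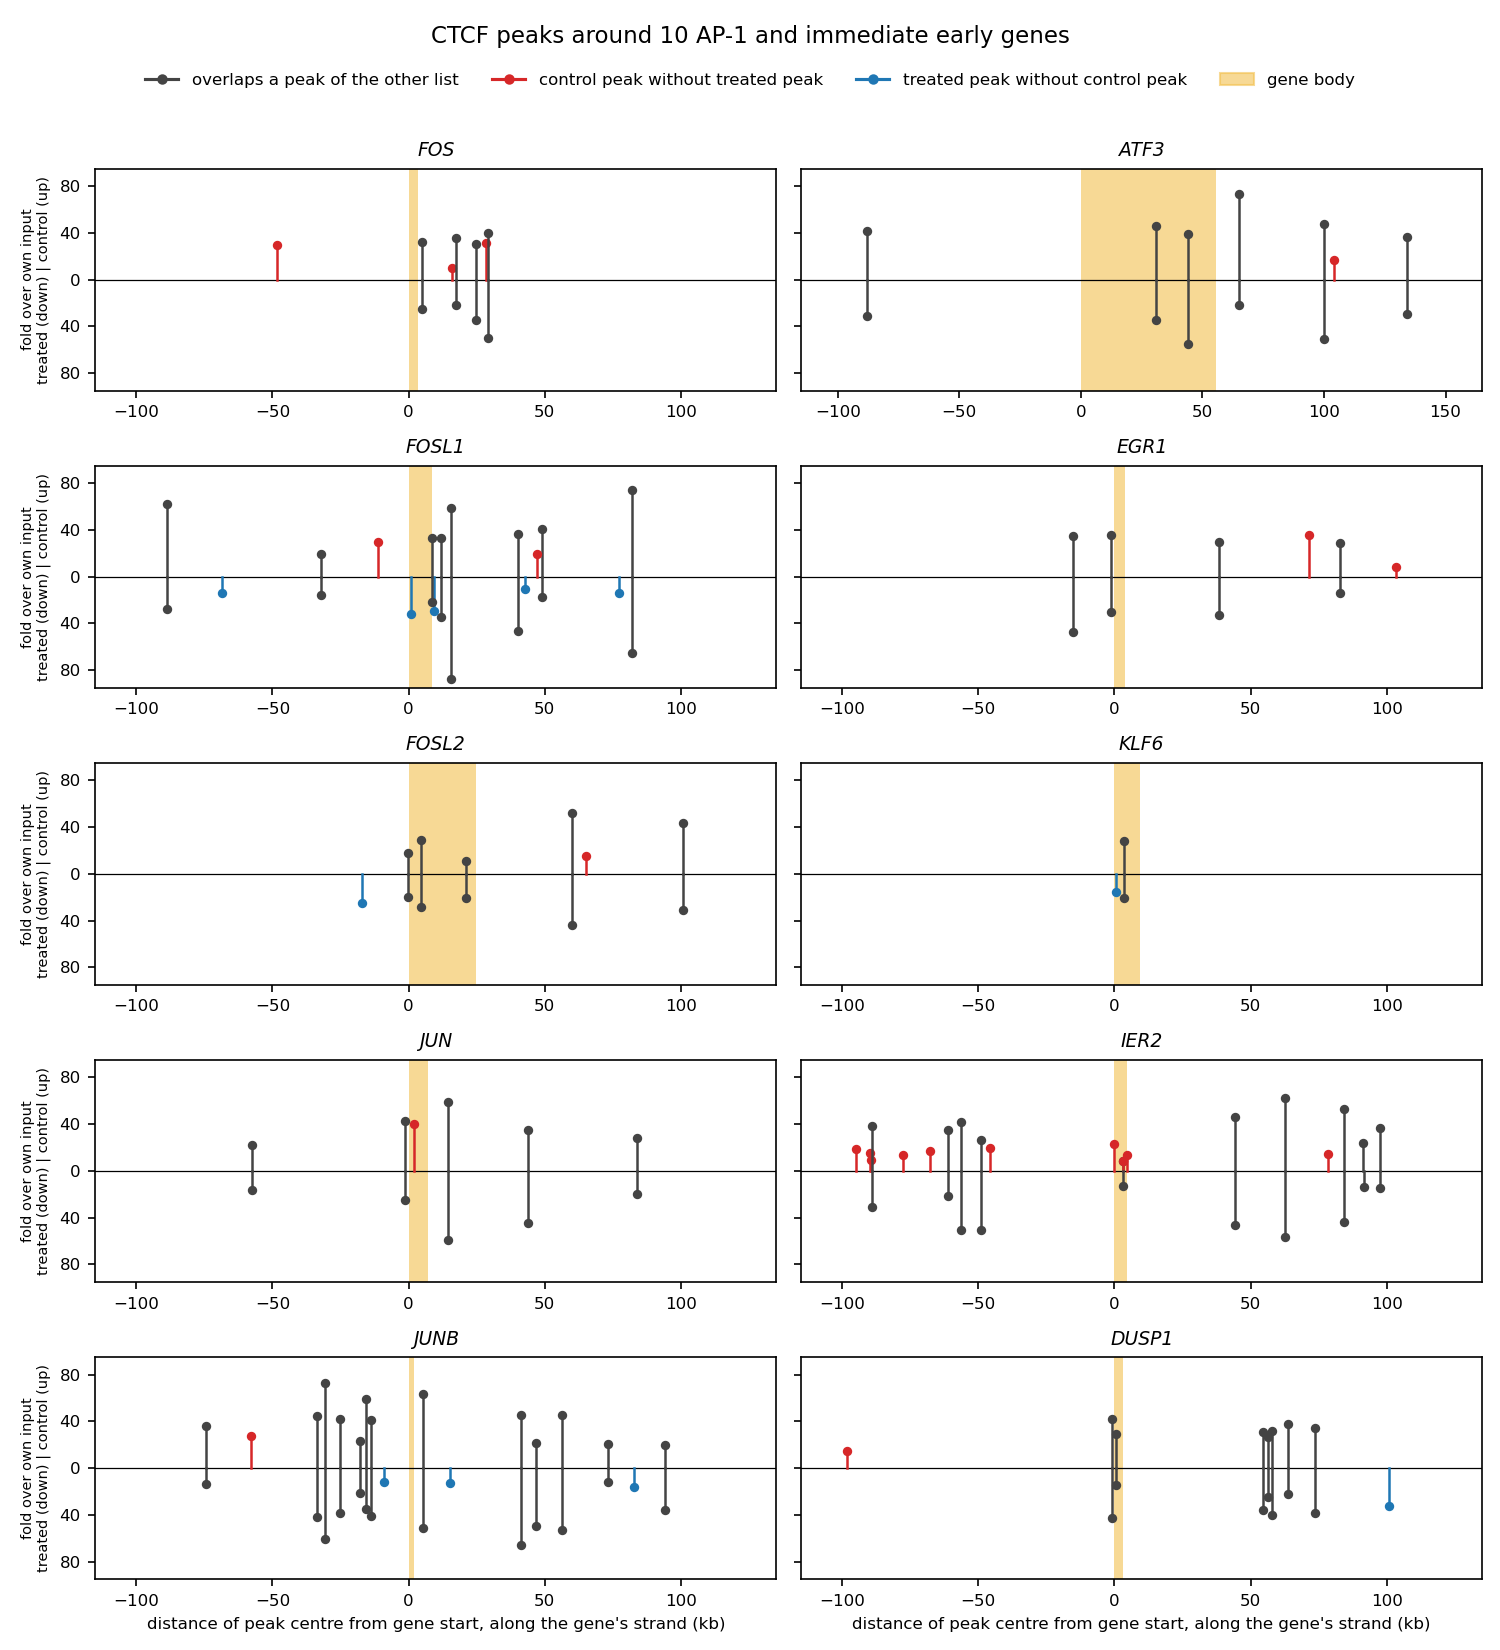
CTCF peaks around each gene by distance of the peak centre from the gene start along its strand (kb), with the fold over its own input of control peaks drawn upwards and of treated peaks downwards; grey stems have a partner in the other list, red ones are lost, blue ones arisen, and the gene body is shaded. Lost and arisen stems are mostly short, and FOS has no treated peak upstream in its window.

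JUN, the most potent activator of the JUN family, lies at chr1:59242517-59249720 on the minus strand, and its window lost 1 of 6 control peaks. That peak, chr1:59247451-59247700, lay in an untranslated or noncoding exon of JUN itself, and at 39.8 fold, the 77.4th percentile, it had the highest fold of the 22 lost peaks. The peak upstream of the start, chr1:59250801-59251100, had 42.3 fold in control cells, at the 81.9th percentile. Its counterpart in treated cells measured 100 bp in place of 300 bp, with 25.1 fold at the 43.3rd percentile. Both peaks beside the JUN start were thus either unmatched or narrower and lower ranked in the treated list. The downstream neighbour chr1:59234951-59235300, the strongest of the window, was at the 96.8th and the 95.3rd percentile. Where a pair had to share over 50% of its longer peak, JUN lost 3 peaks in place of 1, and with an FDR of at most 1e-05 in both lists it also lost 3.

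JUNB, a JUN protein with weaker activating power that often opposes JUN, lies at chr19:12902300-12904129 on the plus strand, within the span annotated for HOOK2. It had no peak inside the gene or within 2 kb of its start. Of 14 control peaks, a number exceeding that of 93.5% of protein-coding gene windows, 13 were kept and 1 was lost (7.14%), while 21.1% of the control peaks of chromosome 19 were lost. The control neighbours were kept on both sides. The upstream one, 13.5 kb away, had 41.3 fold in control and 40.9 fold in treated cells. The downstream one, chr19:12907351-12907700, 3221 bp past the gene end, kept its borders and had 63.3 fold and 51.0 fold. In treated cells a weak peak of 11.8 fold, chr19:12893251-12893450, was the nearest upstream, at 8849 bp. The strongest peak, with a core without mismatch pointing towards JUNB, was at the 99.4th percentile of the control list and at the 96.0th of the treated list.

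ATF3, a stress-induced member of the ATF family that can pair with JUN proteins, lies at chr1:212738676-212794119 on the plus strand and kept 6 of 7 control peaks. Inside the gene, both intronic peaks were kept, and whether either lies at the start of a shorter transcript was not examined. The peak chr1:212769201-212769550 was at the 87.1st percentile of control and the 65.1st of treated peaks, and chr1:212782701-212782950 at the 75.3rd and the 92.7th. The downstream neighbour chr1:212803401-212803700, 9281 bp past the gene, was the strongest of the window. At 73.6 fold it was in the 99.5th percentile of the control list, and its counterpart had 21.9 fold, in the 35.1st percentile of the treated list. This was the steepest drop in rank (-64.4 points) among the 63 overlapping pairs of the 10 windows. The upstream neighbour, 87.8 kb away with a core pointing towards ATF3, had the same borders in both lists. It was at the 80.9th percentile of the control list and the 57.6th of the treated list. The lost peak had 16.9 fold.

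EGR1, a zinc finger transcription factor induced through the same signalling route as FOS, lies at chr5:137801168-137804992 on the plus strand and lost 2 of 6 control peaks. The broad upstream peak chr5:137799651-137800400, 767 bp from the gene and the strongest of the window, was kept with 35.4 fold in control and 30.0 fold in treated cells. The downstream neighbour, 34.4 kb away, was kept as well, at the 51.7th and the 62.1st percentile. One lost peak was about as strong as the peak beside the promoter (35.3 fold) and lay in an intron of ETF1. The other, at 8.52 fold, was 492 bp inside the window edge. Just outside any window, 1448 bp beyond that of DUSP1, lay a kept control peak of 26.1 fold.

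KLF6, a zinc finger factor with tumour suppressor functions, lies at chr10:3818188-3827473 on the minus strand in a stretch with few CTCF peaks. Its window held 1 control peak, where 8.02% of protein-coding gene windows held 1 or none. That peak, in a coding exon at chr10:3823651-3824000, was kept with 28.3 fold and 20.6 fold. Its sole company after treatment was the arisen peak printed above, centred 497 bp past the start, with 15.4 fold and the 17.6th percentile. The nearest control peaks beyond the window were 263 kb downstream, which was kept, and 389 kb upstream, which was lost.

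IER2, an immediate early gene whose product acts in the nucleus, lies at chr19:13261225-13265725 on the plus strand and had 20 control peaks, more than 99.1% of protein-coding gene windows. Of these peaks 50% were lost, while 21.1% of the control peaks of chromosome 19 were lost. All 10 lost peaks were below the list median, between 8.19 and 22.7 fold, whereas 3 of the 10 kept peaks were. The peak at the start, chr19:13261101-13261350 (22.7 fold, 33.0th percentile), was lost, and IER2 was the sole gene of the 10 to lose a peak within 2 kb of its start. In the coding exon, chr19:13264151-13264250 was kept at 8.91 fold and chr19:13264451-13264550 was lost at 8.19 fold. Both nearest neighbours were lost, at 19.5 fold upstream and 14 fold downstream, where the lost peak began 125 bp past the gene. In the treated list the nearest peaks stood 48.8 kb upstream and 39.6 kb downstream. The strongest peak, chr19:13323651-13324150 in an intron of CACNA1A, was kept with 62.4 fold and 56.7 fold. With an FDR of at most 1e-05 in both lists, 5 peaks of the IER2 window were lost. That threshold also removed control peaks, so the 5 are not a share of the 20. Among them were chr19:13200001-13200350 and chr19:13358651-13358950, kept by any overlap, whose treated counterparts had FDRs of 2.84e-04 and 2.54e-05.

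DUSP1, a phosphatase that switches off MAP kinases and is itself an immediate early gene, lies at chr5:172195099-172198198 on the minus strand and kept 7 of 8 control peaks. The promoter peak chr5:172198951-172199350, the strongest of the window, had 41.6 fold in control and 43.0 fold in treated cells. The peak in the coding exon near the start, chr5:172197601-172197800, was kept but ranked lower, at the 50.7th percentile of the control list and the 16.3rd of the treated list. The downstream neighbour, 50.8 kb away, was kept at the 56.8th and the 67.7th percentile. The lost peak (14.9 fold) and the arisen peak (32.1 fold, the highest fold of the 11 arisen peaks) were both close to the outer ends of the window.

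By position, 5 of the 10 genes had a control peak and 6 a treated peak within 2 kb of the start, where 23.4% and 19.4% of all protein-coding genes did. Arisen peaks accounted for FOSL1 and KLF6 (3.19% of all genes had one there), and a lost peak for IER2 (7.69%). The nearest control peak on a side of the gene was lost on 5 of 20 sides, against 37.1% over all protein-coding genes. Those sides were the upstream one of FOS, of FOSL1 and of KLF6 and both of IER2. Lost peaks were 4 of 13 up to 5 kb from the start, 6 of 33 from there to 50 kb and 12 of 39 beyond it (30.8%, 18.2% and 30.8%). Those up to 5 kb were the single lost peak of JUN and otherwise peaks of IER2. Over the windows of all protein-coding genes, where a peak counts once in each window that holds it, the shares were 32.7%, 32.9% and 35.9%.

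**Figure D4:**
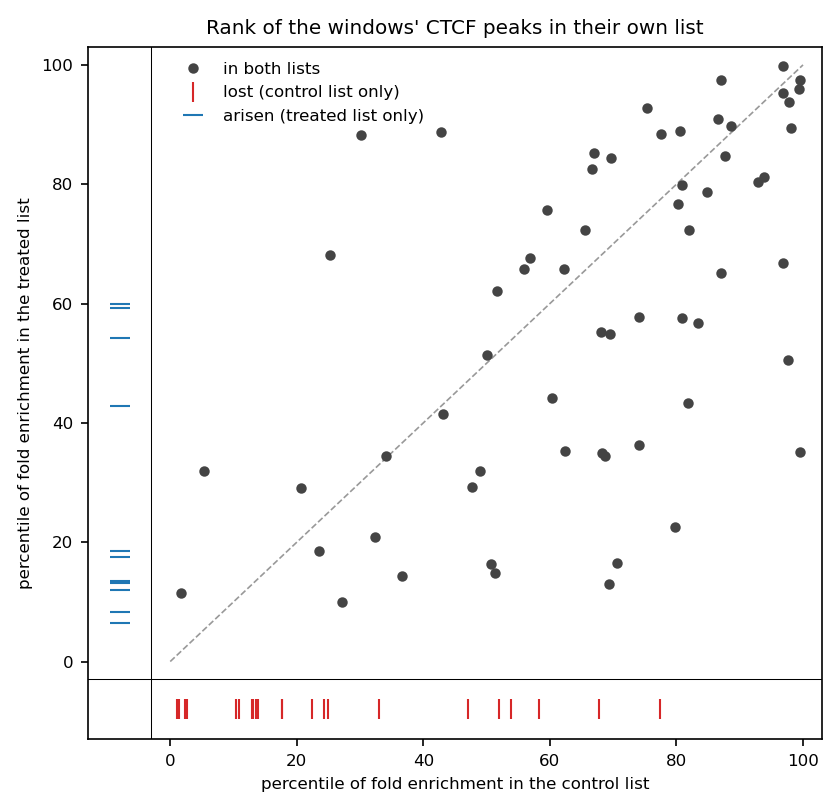
Percentile of fold enrichment of each overlapping pair in the control list (horizontal axis, %) and in the treated list (vertical axis, %), with lost peaks as red ticks along the bottom and arisen peaks as blue ticks at the left; the dashed line marks equal percentiles. Of 63 pairs 24 lie above the line, and lost and arisen ticks gather at low percentiles.

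The kept peaks were mostly narrower and somewhat lower in rank after treatment, as in the whole list. Of 63 overlapping pairs, 35 were narrower in treated cells (55.6%, against 62.5% of all 27185 pairs), 15 were wider and 13 had the same width. A higher percentile in the treated list was found for 24 pairs (38.1%, against 35.1%). The median difference in percentile, treated minus control, was -4.07 points (quartiles -22.1 and 8.35), and over all pairs it was -9.24. The lists differ in length, so equal percentiles do not stand for equal signal.

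Base composition and the core match differed between kept, lost and arisen peaks of these genes in the same order as in the whole lists. At most 1 mismatch to the core within 400 bp around the centre was found for 34 of 63 kept (54.0%), 4 of 22 lost (18.2%) and 3 of 11 arisen peaks (27.3%). Over all peaks the shares were 62.2%, 31.5% and 39.0%, and in windows 10 kb away from all control peaks 2.81%. In windows 10 kb away from the control peaks of these genes the share was 6 of 85 (7.06%, Wilson 95% interval 3.28 to 14.6). Median GC content was 58.8% for kept, 55.9% for lost and 67.2% for arisen peaks (48.5%, 43.2% and 60.2% over all peaks). Arisen peaks had a median of 9.67 CpGs per 100 bp, where the treated peaks with a control counterpart had 3.25. Over all treated peaks the medians were 3.2 and 1.56. Of the 11 arisen peaks 4 were centred in a promoter of a protein-coding gene, against 19.1% of all arisen peaks. The AP-1 site TGANTCA lay within the same 400 bp in 7 of 85 control peaks (8.24%), against 11.9% of all control peaks and 11.6% of the windows 10 kb away. Among arisen peaks 2 of 11 held it (18.2%, Wilson 95% interval 5.14 to 47.7), against 5.93% of all arisen peaks. Outside the gene bodies, 19 of 35 control cores pointed towards the gene (54.3%), a share that was not computed over all genes. Chromosome 19, which has a low lost share of 21.1%, held 34 of the 85 control peaks. There 11 of 34 were lost (32.4%), a share above the 21.1% of the chromosome. On the other chromosomes 11 of 51 were lost (21.6%), against 43.6% of all control peaks on those chromosomes. On chromosome 19 the windows differed, as JUNB lost 1 of 14 control peaks (7.14%) and IER2 10 of 20 (50%). The low lost share was thus seen there for JUNB and not for IER2. Of all treated peaks of chromosome 19, 15.4% were arisen, against 8.07% of the whole treated list. Among the windows there, JUNB had 3 arisen of 16 treated peaks and IER2 0 of 10, so most of the 11 arisen peaks lay on other chromosomes. The part of GC content, gene density and peak strength in the low lost share of these windows was not tested beyond these values.

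Other genes of the same pathways gave similar shares, with genes on chromosome 8 left out of the list. The windows of 37 genes, 13 of the AP-1 family and its partners and 24 other immediate early or growth factor response genes, held 247 control peaks, of which 66 were lost (26.7%), and 217 treated peaks, of which 35 were arisen (16.1%). Without the peaks shared with the windows of FOS and ATF3, the shares were 27.0% and 16.5%. Over the whole lists 42.9% of control peaks were lost and 8.07% of treated peaks were arisen. In the AP-1 set 24 of 107 control peaks were lost (22.4%) and 19 of 102 treated peaks were arisen (18.6%), and FOSB, the remaining FOS protein, lost 1 of 13 and gained 3. JUND, the remaining JUN protein, lost 4 of 15 and gained 3. FOSB and JUND lie on chromosome 19, where 21.1% of control peaks were lost and 15.4% of treated peaks were arisen. So do KLF2, ZFP36 and GADD45B of the immediate early genes, with 3 of 9, 2 of 11 and 2 of 4 treated peaks arisen. In the immediate early set 42 of 140 were lost (30.0%) and 16 of 115 arisen (13.9%). There TNFAIP3, an inhibitor of NF-kB signalling, lost 5 of 8, NR4A2 and DUSP6 each lost their single control peak, and SRF, the factor that drives many immediate early promoters, kept all 5. IER3 had no peak in either list.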

How the data were processed

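CTCF ChIP and input DNA of HT1080 cells were sequenced by the authors, 2 biological replicates each for control and CBL0137. Reads were mapped to hg19 with Bowtie2 2.2.3 and filtered with SAMtools 1.5, and tracks, not analysed here, were made with deepTools 2.0 (versions from the submitters' processing notes). Peaks were called with PePr on both replicates together. The deposited lists hold for each peak its ratio of ChIP to input signal (fold enrichment), a p-value and an FDR. The 2 columns with the unadjusted p-value, 1 a list, were not used. They have no headings and were read in broadPeak column order. The lists of the authors' own comparison hold fold and p-value of one condition over the other and were not used. Depth per library was not in the lists.

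Windows, fates, percentiles and motif matches were computed with pysam 0.24.0, pandas 2.3.3, numpy 2.4.6 and scipy 1.17.1 in Python 3.11.15, and plotted with matplotlib 3.10.9, on GRCh37 with GENCODE v44lift37. The core was searched on both strands over 400 bp, and GC content was taken over the same 400 bp. The start of a gene was the outer end of its annotated body, so inner starts of shorter transcripts were not counted. Promoters were 1000 bp on each side of a start. The routines were tested on simulated data. Named peaks were those in a gene body or within 2 kb of its start, the nearest on each side and the strongest control peak of a window. Lost and arisen peaks outside this rule, and single genes of the longer list, were named after their values were seen. The genes and lists were chosen with earlier results of these data known. Samples were grouped by their labels. Other overlap rules, thresholds, window sizes and mismatch limits were tried. Peaks on contigs outside the chromosomes were left out of sequence measures.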

Additional observations from a re-analysis of the deposited data

How the results depend on the processing

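The share of control peaks lost in the windows was between 22.5% and 34.1% under the other overlap rules, FDR and fold thresholds and window sizes (main value 25.9%). The upper end came when a pair had to share over 50% of its longer peak, where 50.7% of all control peaks were lost. It was 10.2% when the control list was shortened to its strongest peaks, as many as treated peaks, where 24.6% of all were lost. Under every alternative tried it was below the share over all control peaks, and the share over windows of all genes was not computed for the alternatives. The number of arisen peaks, 11 of 74 treated peaks by any overlap, was 18 of 74 with the 50% overlap rule. It was 5 of 52 with an FDR of at most 1e-05 in both lists and 21 of 74 with the shortened control list. With windows of 50 kb it was 7 of 46, and with windows of 200 kb 20 of 126. The arisen peaks beside the starts of FOSL1 and KLF6 did not pass the FDR threshold (2.60e-05 and 1.79e-05). With the 50% overlap rule, with the FDR threshold and with the shortened list, the arisen share over all treated peaks was 20.8%, 7.15% and 24.4%. Under these settings the windows were closer to the whole treated list than by any overlap, where its share was 8.07%. Windows of 50 kb held 51 control and 46 treated peaks, and windows of 200 kb held 142 and 126. The core was found in 8.24% of control peaks of the windows without a mismatch and in 74.1% with up to 2 mismatches, against 44.7% with 1. Over all control peaks these shares were higher, at 13.9%, 83.6% and 49.0%. The number of lost peaks moved by over 1.5 times for 4 genes with the 50% overlap rule (FOSL2, JUN, JUNB, DUSP1) and for 3 with the FDR threshold (JUN, EGR1, IER2). The nearest control peak was kept on 15 of 20 sides, on 14 with the 50% overlap rule and on 12 with the FDR threshold on the treated list. No paired analysis was possible because both replicates of a condition enter 1 list of those used here, and leaving out a replicate and a replicate block were not run for the same reason. The unknown depth per peak limits what an absent peak says.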

Other observations

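A few kept peaks that neither flank a gene nor are the strongest of a window, named here after their values were seen, ranked far higher in the treated list than in the control list. In the JUNB window, chr19:12949101-12949250, within the spans annotated for MAST1 and HOOK2, was at the 30.2nd percentile of the control list (21.7 fold, 150 bp). Its treated counterpart, 300 bp wide, was at the 88.3rd percentile (49.8 fold). In the same window chr19:12996301-12996550, in a coding exon of KLF1, an erythroid transcription factor, was at the 25.2nd and the 68.1st percentile. In the IER2 window chr19:13212151-13212400, in an untranslated or noncoding exon of LYL1, a transcription factor of blood cells, was at the 42.8th and the 88.7th. In the opposite direction, chr11:65756401-65757050 upstream of FOSL1 was at the 97.7th percentile with a width of 650 bp, and its treated counterpart of 300 bp was at the 50.5th. Larger falls were found for chr11:65618751-65619100 (79.7th to 22.6th), chr19:12827751-12828050 (69.4th to 13.0th) and chr19:13358651-13358950 (70.6th to 16.5th). Rises were the fewer, as 24 of all 63 overlapping pairs had a higher percentile in the treated list. Whether these shifts exceed the spread between replicates was not tested, since the lists give 1 value per condition.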
